A study of Homo sapiens and Mus musculus with 69 samples.

Results

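The genes described here are the 6 Notch ligand genes *DLL1*, *DLL3*, *DLL4*, *JAG1*, *JAG2* and *DNER*, taken by symbol from tables of bulk RNA-Seq of small cell lung cancer (SCLC) cell lines. All 6 were among the 20516 genes of the table for human lines, and the mouse forms *Dll1*, *Dll3*, *Dll4*, *Jag1*, *Jag2* and *Dner* were all among the 18501 genes of the table for the mouse line KP1. The study raised Notch signaling in neuroendocrine SCLC cells, either with the active part of the receptor or with a drug. The human table held 60 libraries in 20 groups and the KP1 data comprised 9 libraries in 3 groups, with 3 libraries in each group.

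H82, H524, H69 and COR-L88 are human SCLC lines, and KP1 comes from a mouse SCLC tumor with loss of *Rb1* and *Trp53*. H82, H524 and H69 were present as parental cells and as cells carrying a lentiviral, doxycycline-inducible vector for the human NOTCH1 intracellular domain (*N1ICD*), without and with doxycycline. H82 *N1ICD* cells were also present with *REST* KO and as cells labelled STING KO, each without and with doxycycline, and H524 cells also carried a doxycycline-inducible *REST* vector, without and with doxycycline. Parental cells carried no vector, so that doxycycline was compared within cells that all carried the same vector. COR-L88 cells received the vehicle DMSO, the reversible LSD1 inhibitor TAS1440, or TAS1440 plus a gamma-secretase inhibitor (GSI), and COR-L88 cells labelled STING KO received DMSO or TAS1440. KP1 cells received DMSO, TAS1440 or TAS1440 plus GSI. Per the study's methods the GSI in KP1 was DBZ, a different compound at a different concentration from the GSI in COR-L88. The labels give no time of treatment and do not say which clone a KO group came from. The study reports long treatments, with times that differ between lines, and several single-cell KO clones, so lines and KO groups can also differ in these. Its methods describe that adherent cells were collected after prolonged *N1ICD* overexpression, whereas untreated SCLC cells of these lines mostly grow in suspension.

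Notch ligands are membrane proteins that bind Notch receptors on a neighboring cell, after which gamma-secretase releases the receptor's intracellular domain, which enters the nucleus and, with RBPJ, switches on target genes such as *HES1*. DLL1, DLL4, JAG1 and JAG2 activate receptors in this way, DLL3 lacks this activity and is known to act within its own cell as an inhibitor, and DNER is a noncanonical ligand of neurons. DLL3 is known in SCLC as a surface protein of neuroendocrine tumors that drugs and engineered T cells are directed against.

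*DLL3* lies on chromosome 19 (39989535 to 39999121, plus strand, GRCh37), *DLL1* on chromosome 6 (170591294 to 170615653, minus strand), *DLL4* on chromosome 15 (41221538 to 41231271, plus strand), *JAG1* on chromosome 20 (10618332 to 10654647, minus strand), *JAG2* on chromosome 14 (105607319 to 105635161, minus strand) and *DNER* on chromosome 2 (230222345 to 230579271, minus strand). *DLL1* overlaps *FAM120B* on the opposite strand and a long noncoding RNA gene on its own strand, *JAG2* overlaps a long noncoding RNA gene on its own strand, and *JAG1* and *DNER* overlap noncoding genes on the opposite strand. The library kit keeps strand, but whether counting used it is not stated, so reads of these overlaps cannot be assigned with certainty. *DLL3* and *DLL4* overlap no annotated gene. RefSeq promoter sequences (GRCh38.p14, from 250 bases before to 50 bases after the start) were at hand for 3 of the 6 human genes, *DLL4*, *JAG1* and *JAG2*. The 250 bases before the start of *JAG1*, which rose with *N1ICD* in H82, H524 and H69, and of *DLL4*, which rose in H82 and fell in H524 and H69, are shown beside those of *HES1*, a target gene of Notch signaling that also rose. Each sequence matched GRCh37 exactly and is written 5′ to 3′ on the strand of its gene, with capitals for the letters of TGGGAA (the core of the RBPJ motif) and CACGNG (bound by HES and HEY proteins) on either strand.
JAG1, chr20:10654648-10654897, minus strand: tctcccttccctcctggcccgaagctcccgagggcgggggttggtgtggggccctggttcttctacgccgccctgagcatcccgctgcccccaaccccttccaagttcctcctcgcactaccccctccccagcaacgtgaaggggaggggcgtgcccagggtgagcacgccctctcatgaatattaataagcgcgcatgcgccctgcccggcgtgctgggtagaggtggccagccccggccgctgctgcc
DLL4, chr15:41221288-41221537, plus strand: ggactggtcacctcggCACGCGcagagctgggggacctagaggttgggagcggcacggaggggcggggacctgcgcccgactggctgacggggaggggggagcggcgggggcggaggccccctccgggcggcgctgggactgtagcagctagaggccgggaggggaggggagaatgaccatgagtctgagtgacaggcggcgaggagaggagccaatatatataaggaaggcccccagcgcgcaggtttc
HES1, chr3:193853687-193853936, plus strand: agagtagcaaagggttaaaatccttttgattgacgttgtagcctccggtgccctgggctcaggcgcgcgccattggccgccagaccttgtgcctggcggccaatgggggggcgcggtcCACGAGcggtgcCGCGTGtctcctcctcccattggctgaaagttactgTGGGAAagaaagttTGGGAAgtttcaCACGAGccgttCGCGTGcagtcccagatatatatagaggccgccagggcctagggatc

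The *HES1* promoter holds TGGGAA at 84 and at 70 bases before the start, and none of the 3 ligand promoters holds it on either strand within this window, compared with 24% of all 35116 human promoters of the same length. CACGNG is in all 3 ligand promoters and in 30.5% of all promoters, and lies 234 bases before and 29 bases after the start in *DLL4*, 40 bases after it in *JAG1*, and 236 and 187 bases before it in *JAG2*. The E-box CAGATG, preferred by NEUROD1, is in none of the 3 and in 14.7% of all promoters. These matches describe letters in short windows and are not shown to be binding sites.

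Read counts were not part of the tables, so that depth was known only from the steps between low values, by which the human libraries ranged from 0.7 to 1.53 and the KP1 libraries from 0.874 to 1.08 times the median size of their table. Levels are given as log2(RPKM + 1), where RPKM is a read count scaled to the length of the gene and to the depth of the library, and differences as log2 fold changes on this scale, which understates changes near 0. Nothing in the labels says that the libraries of a group came from separate cultures, so *P* values measure only the spread between libraries, which may be technical. Library 1 (H82 parental) stood apart from the others of its group in *DLL4* and *HES1*, library 6 (KP1 with TAS1440) kept more of 4 ligand genes than the other libraries of its group, and the uninduced H69 *N1ICD* cells differed from parental H69 cells in *NEUROD1*, as described with the results they touch. *NOTCH1* checked the *N1ICD* vector: its mean rose from 1.16 to 4.86 in H82, from 1.20 to 8.06 in H524 and from 0.39 to 7.99 in H69 with doxycycline, and these reads can come from the vector or from the gene itself. *REST* was 9.01 ± 1.96 (SD, n = 3) with and 4.99 ± 0.08 without doxycycline in H524 cells with the *REST* vector. Messenger RNA of *REST* and of *STING1* (named *TMEM173* in the table) was still listed above 0 in cells with the corresponding KO, so the level of these genes does not check those labels.

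In untreated cells the ligand genes differed between the lines. *DLL3* was 4.00, 3.84 and 3.58 in the 3 libraries of parental H82, 4.34, 3.82 and 4.23 in parental H524, 4.57, 4.71 and 4.58 in parental H69 and 4.89, 5.15 and 5.01 in COR-L88 with DMSO. Every library of H69 and COR-L88 was above every library of H82 and H524. In these 4 pairs of lines the difference in *DLL3* was smaller than those in *DLL1*, *DLL4*, *JAG1* and *JAG2*, with COR-L88 above H82 by 1.21 (log2 fold change of H82 against COR-L88, −1.21 ± 0.17 SE, limma adjusted *P* = 6.8e-05) and H69 above H524 by less (−0.49 ± 0.17, limma adjusted *P* = 0.0268). H82 did not differ from H524 at the threshold (−0.32, 95% confidence interval −0.69 to 0.05), and H69 did not differ from COR-L88 (−0.40, −0.77 to −0.03, limma adjusted *P* = 0.0638). The *DLL3* call between H524 and H69 was lost on leaving out library 20 or any 1 of the 3 H69 libraries (libraries 46, 47 and 48), where the difference was −0.34 to −0.52.

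The activating ligand genes were much higher in H69 and COR-L88 than in H82 and H524. *DLL1*, a ligand that differentiating cells of the neural tube present to their neighbors, had values of 0.11, 0.13 and 0.07 in H82, 0.67, 0.78 and 0.86 in H524, 3.47, 3.80 and 3.83 in H69 and 4.25, 4.80 and 4.52 in COR-L88. The 4 lines did not overlap in *DLL1*, and the difference of H82 from COR-L88 was −4.42 ± 0.16. *DLL4*, best known from growing blood vessels, was 4.03, 1.07 and 0.77 in H82, 3.61, 3.14 and 3.74 in H524, 6.03, 6.20 and 6.18 in H69 and 5.49, 6.19 and 5.85 in COR-L88. *DLL4* was higher in H69 and COR-L88 than in H82 and H524 (log2 fold changes of −2.34 to −4.18 for H82 or H524 against H69 or COR-L88, limma adjusted *P* of 0.00889 or less in all 4 comparisons). *JAG2* was 2.26, 1.74 and 1.95 in H82, 2.48, 2.05 and 1.85 in H524, 5.17, 5.17 and 5.08 in H69 and 4.54, 4.37 and 4.57 in COR-L88, again without overlap between H82 or H524 and H69 or COR-L88. *JAG1* was lower than *JAG2* in all 4 lines, with 1.18, 0.51 and 0.48 in H82, 0.87, 1.15 and 1.11 in H524, 2.83, 2.92 and 2.87 in H69 and 4.07, 3.78 and 3.57 in COR-L88. *DNER* was 0.66 or lower in every library of H82, H69 and COR-L88 and was 2.47, 3.11 and 3.27 in H524 (H524 against H82, 2.93 higher, limma adjusted *P* = 1.13e-07). Between H82 and H524 the test called 2 of the 6 genes (*DLL1* and *DNER*), and 56.3% of all genes tested were called in the same comparison. Without library 1, whose *DLL4* and *HES1* (1.48, compared with 0.26 and 0.18) stood apart from the other parental H82 libraries, 4 of the 6 were called. In the 4 comparisons of H82 or H524 with H69 or COR-L88, 5 of the 6 genes (H82 against H69) or all 6 (the other 3 comparisons) were called, with 68.8% (H82 against H69), 64.3% (H82 against COR-L88), 58% (H524 against H69) and 59.1% (H524 against COR-L88) of all genes. H69 differed from COR-L88 in 4 of the 6 genes, compared with 57% of all genes. In these counts *DNER* entered the test only through the 3 H524 libraries, the only ones at 1 or more. Its calls against H524 therefore cannot be counted as support, and any call among H82, H69 and COR-L88 rests on values near 0. *DLL1* entered the test only through the H69 and COR-L88 libraries. The calls of *DLL1* in H82 or H524 against those lines therefore cannot be counted as support either. Its call between H82 and H524 rests on values under 1.

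**Figure D1:**
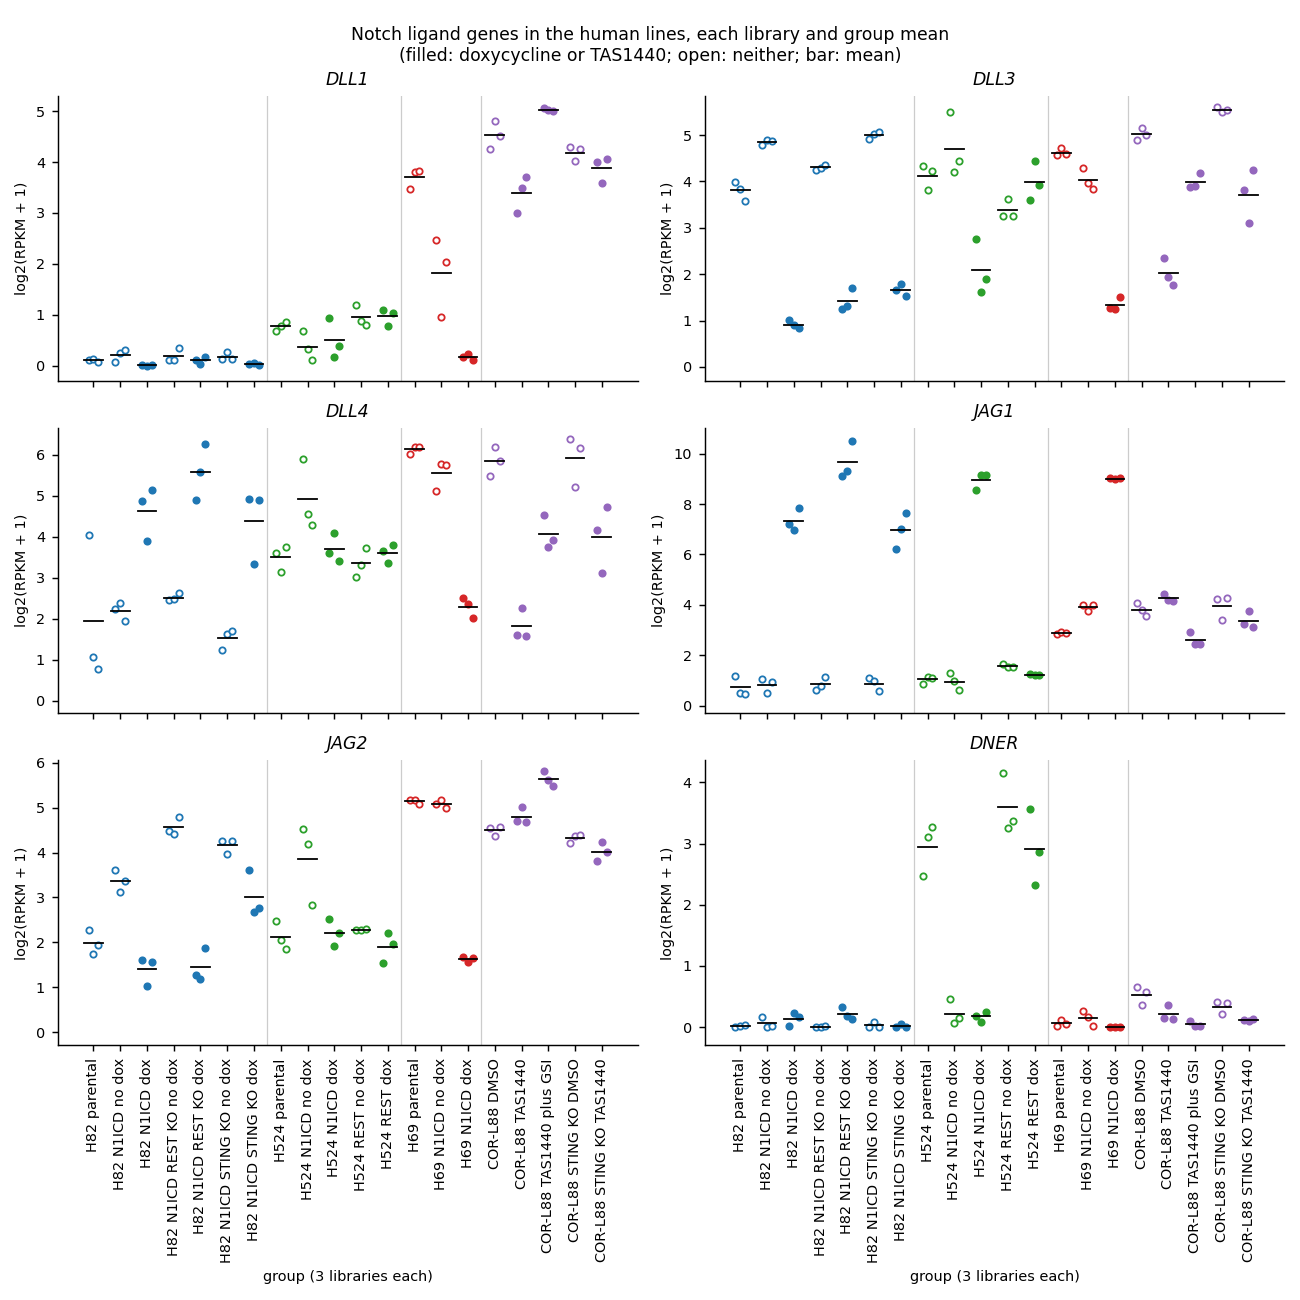
Level of each Notch ligand gene, as log2(RPKM + 1), in the 60 human libraries (points, 3 per group) with the mean of each group (bar), colored by line and filled where doxycycline or TAS1440 was given. *DLL3* falls to between 0.83 and 2.75 in every library of *N1ICD* cells with doxycycline, while *JAG1* lies between 6.21 and 10.52 in the same libraries and at 4.43 or lower in all other human libraries.

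In H82 *N1ICD* cells, the most abundant ligand transcript was *DLL3* without doxycycline and *JAG1* with it. *DLL3* was 4.79, 4.89 and 4.88 without and 1.00, 0.91 and 0.83 with doxycycline. All libraries with doxycycline were far below all libraries without it, and the log2 fold change was −3.94 ± 0.15 (95% confidence interval −4.25 to −3.64, limma adjusted *P* = 7.42e-13). *JAG1*, a ligand that is itself a known Notch target, was 1.05, 0.52 and 0.92 without and 7.20, 6.98 and 7.85 with doxycycline. The rise of 6.51 ± 0.37 (limma adjusted *P* = 1.44e-10) took *JAG1* from a mean RPKM of 0.797 ± 0.329 to 167 ± 55 (SD, n = 3), while *DLL3* fell from 28 ± 1.09 to 0.885 ± 0.114. *DLL4* was 2.24, 2.38 and 1.96 without and 4.86, 3.89 and 5.14 with doxycycline, a rise of 2.44 ± 0.63 (limma adjusted *P* = 0.00348). *JAG2* moved the other way, from 3.60, 3.12 and 3.37 to 1.61, 1.02 and 1.57 (−1.97 ± 0.25, limma adjusted *P* = 3.98e-06). The groups did not overlap for any of these 4 genes. The share of all genes without overlap was not counted, so this cannot be counted as support. *DLL1* and *DNER*, both at 0.30 or lower in all 6 libraries, were under the filter on low values and were not tested, and an exact permutation test of 3 libraries against 3 cannot go below *P* = 0.1. All 4 ligand genes tested were thus called, 2 higher and 2 lower, in a comparison that called 50.3% of all genes (25.4% higher and 24.9% lower). In a bulk sample, fewer cells that express *DLL3* and less *DLL3* RNA in each cell cannot be told apart. No H82 or H69 group without the *N1ICD* vector is labelled with doxycycline. In these lines, doxycycline itself, long culture and the collection of adherent cells therefore cannot be told apart from *N1ICD*.

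In H524 *N1ICD* cells, the rise of *JAG1* with doxycycline was larger and the fall of *DLL3* smaller than in H82. *DLL3* was 5.49, 4.21 and 4.43 without and 2.75, 1.62 and 1.90 with doxycycline (−2.62 ± 0.35, limma adjusted *P* = 5.64e-05). *JAG1* went from 1.28, 0.98 and 0.60 to 8.58, 9.15 and 9.16 (8.01 ± 0.19, limma adjusted *P* = 2.08e-12). *JAG2* fell from 4.53, 4.18 and 2.84 to 2.52, 1.91 and 2.21 (−1.64 ± 0.35, limma adjusted *P* = 0.00255). *DLL4*, which rose in H82, fell in H524 from 5.89, 4.56 and 4.28 to 3.60, 4.09 and 3.40 (−1.21 ± 0.36, limma adjusted *P* = 0.0183). The *DLL4* groups did not overlap, but library 22, with 5.89, carried part of the fall, which was −0.72 (limma adjusted *P* = 0.0563) without it; the call was also lost without library 25 (−1.17) or library 27 (−1.06) and with only the 2 compared groups in the fit (limma adjusted *P* = 0.0876). *DLL1* (0.12, −0.31 to 0.56) and *DNER* (−0.05, −0.71 to 0.62) were at 0.94 or lower in all 6 libraries and did not pass the threshold. Of the 6 ligand genes, 1 was called higher and 3 lower, and 32.3% of all genes were called (17.9% higher and 14.4% lower).

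In H69 cells *JAG1* rose and every other ligand gene tested fell. *DLL3* was 4.28, 3.96 and 3.83 without and 1.27, 1.25 and 1.498 with doxycycline (−2.68 ± 0.12, limma adjusted *P* = 1.03e-07). *JAG1* was 4.01, 3.76 and 3.98 without and 9.03, 9.00 and 9.02 with doxycycline, so that this line reached the level of H524 from a higher start (5.10 ± 0.07, limma adjusted *P* = 1.39e-10). *DLL4* fell from 5.13, 5.78 and 5.74 to 2.51, 2.36 and 2.02 (−3.25 ± 0.19) and *JAG2* from 5.07, 5.18 and 4.98 to 1.68, 1.56 and 1.65 (−3.45 ± 0.07). *DLL1* fell from 2.48, 0.96 and 2.05 to 0.16, 0.22 and 0.11 (−1.66 ± 0.33, limma adjusted *P* = 0.00132). *DNER* was listed at 0 in all 3 libraries with doxycycline and was between 0.03 and 0.26 without it. All 5 genes tested were called, 1 higher and 4 lower, in a comparison that called 82.3% of all genes (44.1% higher and 38.3% lower).

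The response of *DLL4* differed between all 3 lines. The log2 fold change of *DLL4* with doxycycline was 3.65 higher in H82 than in H524 (SE 0.54, limma adjusted *P* = 0.000112), 5.69 higher in H82 than in H69 (limma adjusted *P* = 3.52e-07) and 2.04 higher in H524 than in H69 (limma adjusted *P* = 0.00526). The rise of *JAG1* was smaller in H82 than in H524 (log2 difference −1.49, limma adjusted *P* = 0.00341) and was 1.41 and 2.91 larger in H82 and in H524 than in H69. The fall of *JAG2* was larger in H69, with differences of 1.48 to H82 and 1.81 to H524. The fall of *DLL3* was larger in H82, with differences of −1.32 to H524 (limma adjusted *P* = 0.029) and −1.26 to H69 (limma adjusted *P* = 0.0176), and the difference to H524 lost its call under quantile normalization (−1.14, limma adjusted *P* = 0.0709) and on leaving out libraries 5, 6, 9, 23, 24 or 25 in turn (−0.99 to −1.31). Between H524 and H69 the difference in the *DLL3* response was 0.06, with a 95% confidence interval of −0.83 to 0.95. These comparisons called 26.5% (H82 and H524), 58.3% (H82 and H69) and 51.9% (H524 and H69) of all genes. The level of *DLL4* before doxycycline also differed between the lines, with group means of 2.19 in H82, 4.91 in H524 and 5.55 in H69, and with doxycycline they were 4.63, 3.70 and 2.30.

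**Figure D2:**
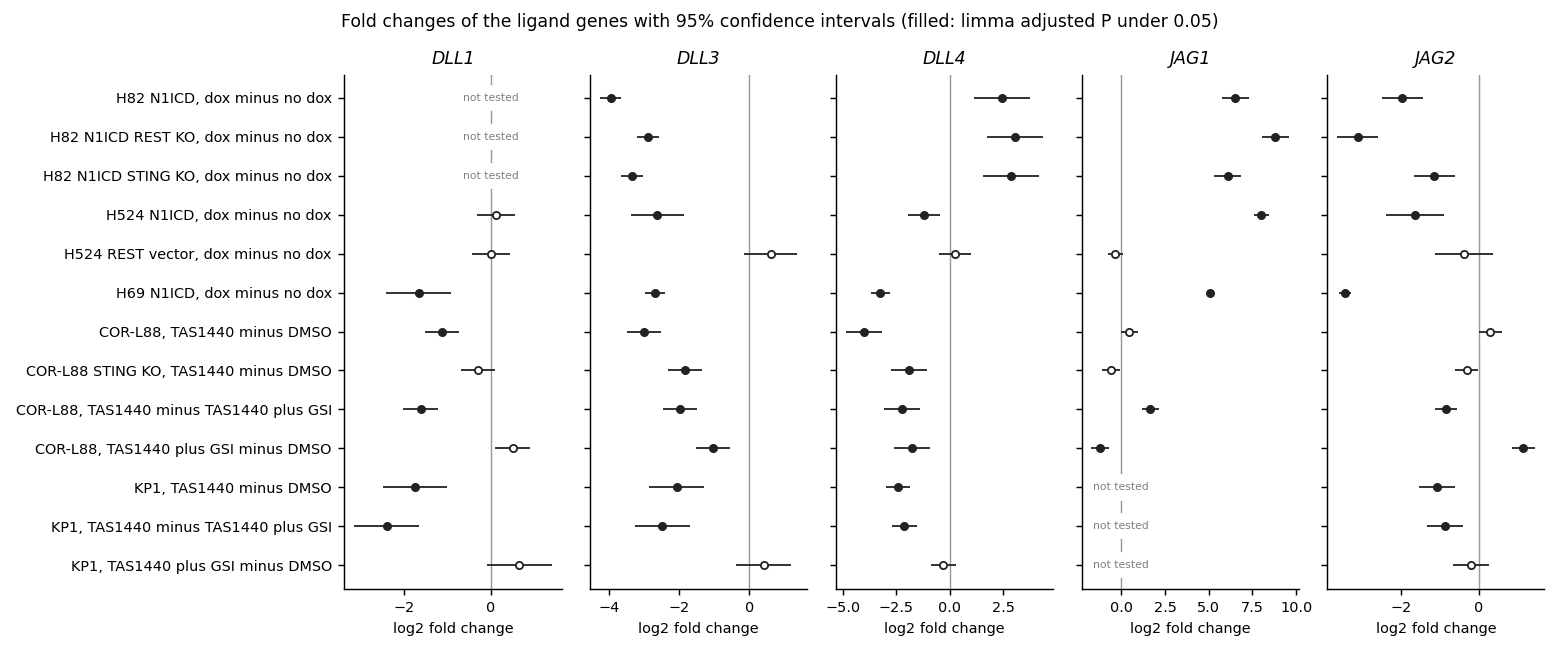
Log2 fold changes of 5 ligand genes (points) with 95% confidence intervals (lines) in 13 comparisons, with a horizontal scale for each gene and filled points for limma adjusted *P* under 0.05. *DLL3* lies between −1.03 and −3.94 wherever *N1ICD* or TAS1440 was called, *DLL4* lies above 0 in the H82 comparisons with doxycycline and below 0 where called elsewhere, and *JAG1* lies between 5.10 and 8.81 with *N1ICD*.

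H524 cells with the vector for REST, a repressor of neuronal genes, were also compared without and with doxycycline. The *REST* level with doxycycline spread widely between these libraries, as given above, which limits what a missing call can show. With *REST* overexpression, *DLL3* was 3.25, 3.62 and 3.26 without and 3.59, 4.43 and 3.93 with doxycycline. The groups overlapped, and the log2 fold change was 0.61 (95% confidence interval −0.15 to 1.36, limma adjusted *P* = 0.4). *JAG1* was 1.65, 1.52 and 1.55 without and 1.26, 1.21 and 1.20 with doxycycline (−0.35, −0.77 to 0.07, limma adjusted *P* = 0.38). *DNER*, close to 0 in the uninduced *N1ICD* cells but high in these, was 4.15, 3.26 and 3.37 without and 3.56, 2.32 and 2.86 with doxycycline (−0.68, −1.35 to −0.01, limma adjusted *P* = 0.277). None of the 6 ligand genes was called by limma, in a comparison that called 2.83% of all genes, and only *DNER* had an unadjusted *P* under 0.05. The interaction of vector and doxycycline, which sets both vectors against each other within H524, was called for *DLL3* (−3.23 ± 0.50, limma adjusted *P* = 0.000375) and *JAG1* (8.35 ± 0.27, limma adjusted *P* = 1.38e-10), with 19.1% of all genes. For *DLL4* (−1.46, limma adjusted *P* = 0.0586) and *JAG2* (−1.26, limma adjusted *P* = 0.0959) it was not, although 4 ligand genes were called without library 24.

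*REST* KO in H82 left the fall of *DLL3* and the rise of *JAG1* in place and changed their sizes. In *REST* KO cells, *DLL3* went from 4.25, 4.30 and 4.36 to 1.25, 1.32 and 1.70 with doxycycline (−2.88 ± 0.15, limma adjusted *P* = 1.79e-11), and *JAG1* from 0.63, 0.77 and 1.14 to 9.13, 9.31 and 10.52 (8.81 ± 0.37, limma adjusted *P* = 1.73e-12). *DLL4* rose from 2.45, 2.47 and 2.64 to 4.89, 5.59 and 6.26 (3.06 ± 0.63) and *JAG2* fell from 4.48, 4.42 and 4.79 to 1.27, 1.19 and 1.88 (−3.12 ± 0.25). All 4 genes tested were called, with 52.2% of all genes. With doxycycline, *JAG1* was higher with *REST* KO than without by 2.31 ± 0.37 (limma adjusted *P* = 9.49e-05) and *DLL3* by 0.51 ± 0.15 (limma adjusted *P* = 0.01), 2 of 4 genes tested, compared with 38.4% of all genes; the *DLL3* call was lost without library 33 (0.37, limma adjusted *P* = 0.0561). *NOTCH1* was also higher in these libraries, with 9.55 ± 1.05 compared with 4.86 ± 0.66 in *N1ICD* cells without KO (SD, n = 3), and its part in the difference was not tested. Without doxycycline, *JAG2* was higher by 1.20 ± 0.25 (limma adjusted *P* = 0.00398) and *DLL3* lower (−0.55, limma adjusted *P* = 0.0156) with *REST* KO, with 15.2% of all genes called, and the *DLL3* call was lost under quantile normalization and without library 28 or library 29 (−0.48 to −0.55). The interaction of doxycycline with *REST* KO was 1.06 ± 0.21 for *DLL3* (limma adjusted *P* = 0.00134), 2.30 ± 0.52 for *JAG1* (limma adjusted *P* = 0.00495) and −1.15 ± 0.35 for *JAG2* (limma adjusted *P* = 0.0324), with 16.6% of all genes called. The *JAG2* interaction lost its call with a pseudocount of 0.1 and on leaving out any 1 of 8 of the 12 libraries (libraries 5, 6, 7, 9, 28, 30, 31 and 32), where it was −1.02 to −1.20.

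In H82 cells labelled STING KO, *DLL3* went from 4.92, 5.02 and 5.07 to 1.65, 1.79 and 1.53 with doxycycline (−3.34 ± 0.15, limma adjusted *P* = 7.25e-12) and *JAG1* from 1.08, 0.96 and 0.56 to 6.21, 7.01 and 7.66 (6.09 ± 0.37, limma adjusted *P* = 5.29e-10). *DLL4* went from 1.25, 1.62 and 1.70 to 4.93, 3.33 and 4.89 (2.86 ± 0.63), and *JAG2* from 4.26, 3.97 and 4.25 to 3.60, 2.68 and 2.76 (−1.14 ± 0.25). The directions were those of *N1ICD* cells without KO for all 4 genes tested, all 4 were called, and 37.8% of all genes were. With doxycycline, *JAG2* was higher than in cells without KO by 1.62 ± 0.25 and *DLL3* by 0.74 ± 0.15, 2 of 4 genes, compared with 39.2% of all genes. Without doxycycline *JAG2* alone was called (0.79 ± 0.25, limma adjusted *P* = 0.0203), with 34.6% of all genes, and this call was lost without library 5, library 55 or library 57 (0.67 to 0.75). The interaction of doxycycline with the STING KO label was called for none of the 4 genes by limma, with 9.26% of all genes called; *DLL3* (0.60, 0.17 to 1.03, limma adjusted *P* = 0.0758) and *JAG2* (0.82, 0.08 to 1.57) had an unadjusted *P* under 0.05, and with a pseudocount of 0.1 *DLL3* was called (1.05, limma adjusted *P* = 0.0166). These H82 comparisons share the *N1ICD* groups without KO.

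Cells with an uninduced vector were not the same as parental cells in their ligand genes. In H82, uninduced *N1ICD* cells had 1.05 ± 0.15 more *DLL3* (limma adjusted *P* = 7.3e-05) and 1.38 ± 0.25 more *JAG2* (limma adjusted *P* = 0.00104) than parental cells, 2 of 4 genes tested, compared with 13.7% of all genes. In H524, uninduced *N1ICD* cells had almost no *DNER* (0.45, 0.06 and 0.14, compared with 2.47, 3.11 and 3.27 in parental cells; −2.73 ± 0.31, limma adjusted *P* = 7.05e-05), and *JAG2* (1.72 ± 0.35) and *DLL4* (1.41 ± 0.36) were higher, 3 of 6 genes, compared with 26.6% of all genes. With only these 2 groups in the fit, *DLL4* (limma adjusted *P* = 0.124) and *JAG2* (limma adjusted *P* = 0.0892) were not called. Uninduced *REST* vector cells of H524 kept *DNER* (4.15, 3.26 and 3.37), and none of their 6 ligand genes was called against parental cells by limma, with 0.3% of all genes called; *JAG1* (0.53, limma adjusted *P* = 0.348) and *DLL3* (−0.75, limma adjusted *P* = 0.517) did not overlap between these groups. In H69, uninduced *N1ICD* cells had less *DLL1* (−1.87 ± 0.33, limma adjusted *P* = 0.00372) and *DLL3* (−0.60 ± 0.12, limma adjusted *P* = 0.00835) and more *JAG1* (1.04 ± 0.07, limma adjusted *P* = 2.69e-05) than parental cells. *DLL4* was also called (−0.59, limma adjusted *P* = 0.0496), making 4 of 5 genes, compared with 27.4% of all genes, but its call was lost in 6 of 7 other settings and without 5 of the 6 libraries. In the same cells *NEUROD1*, a neuroendocrine transcription factor, was 10.61, 8.88 and 8.69, compared with 5.03, 4.77 and 3.32 in parental H69, and its part in the ligand levels was not tested.

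In COR-L88 cells, which carried no vector, the Delta-like genes fell with TAS1440 and the Jagged genes were not called. *DLL3* was 4.89, 5.15 and 5.01 with DMSO, 2.34, 1.94 and 1.77 with TAS1440 and 3.87, 3.90 and 4.19 with TAS1440 plus GSI. No group overlapped another, and *DLL3* fell by 3.00 ± 0.23 with TAS1440 compared with DMSO (limma adjusted *P* = 1.76e-07). *DLL4* was 5.49, 6.19 and 5.85 with DMSO, 1.60, 2.27 and 1.59 with TAS1440 and 4.54, 3.75 and 3.91 with TAS1440 plus GSI, a fall of 4.03 ± 0.39 with TAS1440 (limma adjusted *P* = 1.62e-06). *DLL1* was 4.25, 4.80 and 4.52 with DMSO, 3.01, 3.5002 and 3.70 with TAS1440 and 5.06, 5.03 and 5.00 with TAS1440 plus GSI, a fall of 1.13 ± 0.18 with TAS1440 (limma adjusted *P* = 0.00016). *JAG1* was 4.07, 3.78 and 3.57 with DMSO and 4.43, 4.20 and 4.17 with TAS1440 (0.46, −0.04 to 0.96, limma adjusted *P* = 0.108), and *JAG2* was 4.54, 4.37 and 4.57 with DMSO and 4.69, 5.02 and 4.68 with TAS1440 (0.30, 0.01 to 0.60, limma adjusted *P* = 0.0712). These Jagged groups did not overlap but were not called. Of 5 genes tested, 3 were called, all lower, and 57.7% of all genes were called (26.6% lower).

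GSI, which blocks release of the Notch intracellular domain, was compared in cells that all received TAS1440. *DLL3* was lower with TAS1440 than with TAS1440 plus GSI by 1.97 on the log2 scale (−1.97 ± 0.23, limma adjusted *P* = 1.89e-05), *DLL4* by 2.25 (−2.25 ± 0.39, limma adjusted *P* = 0.000448) and *DLL1* by 1.63 (−1.63 ± 0.18, limma adjusted *P* = 1.6e-05). *JAG1* was higher with TAS1440 alone, since its values with TAS1440 plus GSI were 2.92, 2.45 and 2.44 (1.66 ± 0.23, limma adjusted *P* = 7.95e-05). *JAG2* was 5.82, 5.62 and 5.48 with TAS1440 plus GSI, above all libraries of both other groups (−0.84 ± 0.14 for TAS1440 against TAS1440 plus GSI, limma adjusted *P* = 0.000235). All 5 genes tested were called, with 46.7% of all genes. With TAS1440 plus GSI the ligand genes had not returned to their levels with DMSO: *DLL3* (−1.03 ± 0.23, limma adjusted *P* = 0.00449), *DLL4* (−1.77 ± 0.39, limma adjusted *P* = 0.00463) and *JAG1* (−1.20 ± 0.23, limma adjusted *P* = 0.00176) were lower and *JAG2* higher (1.15 ± 0.14, limma adjusted *P* = 3.01e-05), 4 of 5 genes, compared with 24.5% of all genes. *DLL1* was not called (0.50, 0.11 to 0.90, limma adjusted *P* = 0.0639). The 3 comparisons share their groups in pairs.

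In COR-L88 cells labelled STING KO, *DLL3* was 5.61, 5.49 and 5.54 with DMSO and 3.81, 3.10 and 4.24 with TAS1440 (−1.83 ± 0.23, limma adjusted *P* = 2.4e-05). *DLL4* was 6.37, 5.21 and 6.15 with DMSO and 4.16, 3.11 and 4.72 with TAS1440 (−1.92 ± 0.39, limma adjusted *P* = 0.00146). *DLL1* (−0.30, −0.70 to 0.10), *JAG1* (−0.59, −1.10 to −0.09, limma adjusted *P* = 0.0548) and *JAG2* (−0.30, −0.60 to −0.01) overlapped between the groups and were not called, so that 2 of 5 genes were, compared with 43.3% of all genes; 4 were called with median-centred libraries and without library 44. With DMSO none of the 5 genes differed by limma between cells labelled STING KO and cells without KO at the threshold, with 5.41% of all genes called, and *DLL3* alone had an unadjusted *P* under 0.05 (0.53, limma adjusted *P* = 0.19). The interaction was called for *DLL3* (1.17 ± 0.32, limma adjusted *P* = 0.0419) and *DLL4* (2.11 ± 0.56, limma adjusted *P* = 0.0352), with 7.93% of all genes, which means a smaller fall in cells labelled STING KO. Both calls were near the threshold: without a filter on low values or with only the 4 groups in the fit neither was called, and leaving out 1 library at a time gave 0 to 5 genes called.

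In the mouse line KP1, all Delta-like genes were lower with TAS1440 than with DMSO or with TAS1440 plus GSI. No group received GSI without TAS1440, so an effect of GSI alone cannot be told apart from a change in the response to TAS1440. *Dll3* was 2.06, 2.13 and 2.62 with DMSO, 0.03, 0.08 and 0.51 with TAS1440 and 2.80, 3.39 and 1.86 with TAS1440 plus GSI. The TAS1440 libraries were below all others, and the log2 fold change against DMSO was −2.06 ± 0.35 (limma adjusted *P* = 0.00139). *Dll1* was 2.15, 2.07 and 2.14 with DMSO, 0.15, 0.10 and 0.85 with TAS1440 and 3.01, 3.35 and 1.97 with TAS1440 plus GSI (−1.76 ± 0.33 against DMSO, limma adjusted *P* = 0.00279). *Dll4* was 2.70, 2.72 and 2.42, then 0.05, 0.03 and 0.47, and 1.72, 2.46 and 2.76 in the same order of groups (−2.43 ± 0.25 against DMSO, limma adjusted *P* = 7.97e-05). *Jag2* was the highest ligand gene with DMSO and fell less, from 3.15, 3.17 and 3.06 to 1.88, 2.42 and 1.87 (−1.07 ± 0.21, limma adjusted *P* = 0.00307). *Dner* fell from 0.80, 0.84 and 0.75 to 0.01, 0.01 and 0.12 (−0.75 ± 0.09, limma adjusted *P* = 0.000148). *Jag1* went the other way, from 0.32, 0.36 and 0.21 to 1.56, 0.84 and 0.84, without overlap. It was under the filter and was not tested with limma, and an exact permutation test gave *P* = 0.1, the smallest that 3 libraries against 3 allow. Its values with TAS1440 plus GSI, 0.31, 0.40 and 1.14, overlapped those with TAS1440 alone (exact permutation test, *P* = 0.3). All 5 genes tested were called lower, with 36.7% of all genes called (18.5% lower). Against TAS1440 plus GSI the same 5 genes were called lower (−0.87 to −2.47, limma adjusted *P* of 0.0107 or less), with 32% of all genes (16.3% lower). *Dner* passed the filter only through its libraries with TAS1440 plus GSI (1.02, 1.05 and 1.05), so its call against that group cannot be counted as support. Both counts of 5 genes lower also leave out *Jag1*, which the filter removed. With TAS1440 plus GSI none of the 5 was called against DMSO by limma, with 1.97% of all genes called; *Dner* alone had an unadjusted *P* under 0.05 (0.24, 0.05 to 0.44, limma adjusted *P* = 0.281). Library 6 had the highest *Dll1*, *Dll3*, *Dll4* and *Dner* of the TAS1440 group. Levels in KP1 and the human lines come from tables normalized separately and are not compared here.

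**Figure D3:**
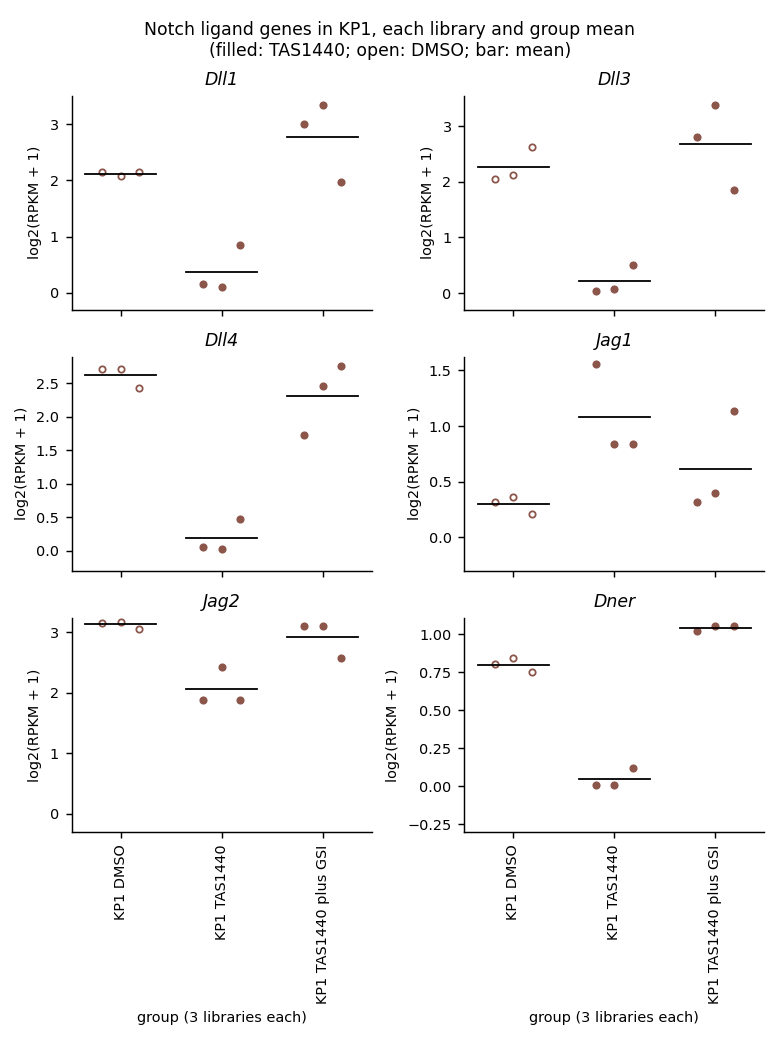
Level of each ligand gene in the 9 KP1 libraries, as log2(RPKM + 1), with a vertical scale for each gene, points for libraries and bars for group means, filled where TAS1440 was given. *Dll1*, *Dll3* and *Dll4* lie at 0.85 or lower in all 3 libraries with TAS1440 alone and at 1.72 or higher in the other 6. *Jag1* has its highest mean with TAS1440 alone, where its libraries overlap those with TAS1440 plus GSI.

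RPKM values are per length of gene, so the ligand genes can be set against each other on this linear scale. *DLL3* made up a mean of 64.1% of the summed RPKM of the 6 ligand genes in parental H82, 42.3% in parental H524, 16.2% in parental H69 and 21.6% in COR-L88 with DMSO. Over the parental H82 libraries the *DLL3* share ran from 42.2% to 77.1%, and in library 1 *DLL4* (43.3%) was above it. *DLL4* took the largest share in H69 (47.6%) and COR-L88 (38.9%). With *N1ICD* and doxycycline, *JAG1* took 85.7% in H82, 94% with *REST* KO, 78.7% in cells labelled STING KO, 96% in H524 and 98.5% in H69, and *DLL3* 1.45% or less in all of these groups. The summed RPKM of the 6 genes rose with it, from 42 ± 0.808 to 195 ± 64.5 in H82, from 77.1 ± 43.5 to 526 ± 105 in H524 and from 112 ± 6.42 to 523.8 ± 5.28 in H69 (SD, n = 3). With TAS1440 the sum went the other way, from 146 ± 18.5 to 60.9 ± 4.42 in COR-L88 and from 21.1 ± 0.112 to 5.09 ± 0.267 in KP1, and it was 117 ± 11.2 and 24.9 ± 6.8 with TAS1440 plus GSI. In COR-L88 with TAS1440, *JAG2* (44.1%) and *JAG1* (30.2%) were then the leading ligand genes, and in KP1 *Jag2* was (63.3%, from 51.7% to 82.2% over the 3 libraries). These shares and sums are descriptions of the group means.

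**Figure D4:**
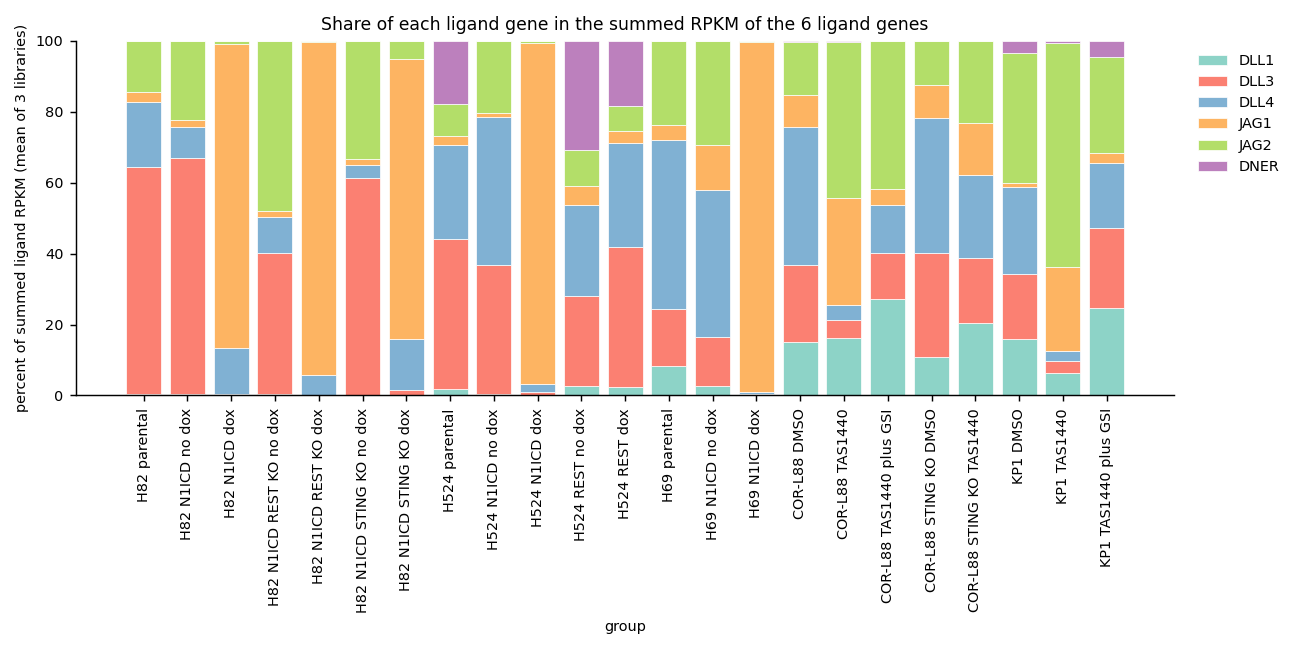
Share of each ligand gene, in percent, of the summed RPKM of the 6 ligand genes in each of the 23 groups (stacked bars, mean of 3 libraries). *JAG1* fills 78.7% to 98.5% of the bar in the 5 groups of *N1ICD* cells with doxycycline, and *DLL3* has its largest share, 66.7%, in uninduced H82 *N1ICD* cells.

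Across all 20 human groups, *DLL3* was highest in COR-L88 cells labelled STING KO with DMSO (5.55 ± 0.06) and lowest in H82 *N1ICD* cells with doxycycline (0.91 ± 0.09; SD, n = 3). Of the 19 pairs of groups next to each other in this order, 14 overlapped. The 6 lowest groups were the 5 *N1ICD* groups with doxycycline and COR-L88 with TAS1440, and none of their libraries reached the groups above. *JAG1* had its 5 highest group means in the 5 *N1ICD* groups with doxycycline, and the next was COR-L88 with TAS1440 (4.27 ± 0.14). Over the 20 group means, Pearson's r between *DLL3* and *JAG1* was −0.80, and −0.82 after centring within lines, while between *DLL3* and *DLL4* it was 0.11 and 0.06. The group means share lines and vectors, and these values are descriptions.

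**Figure D5:**
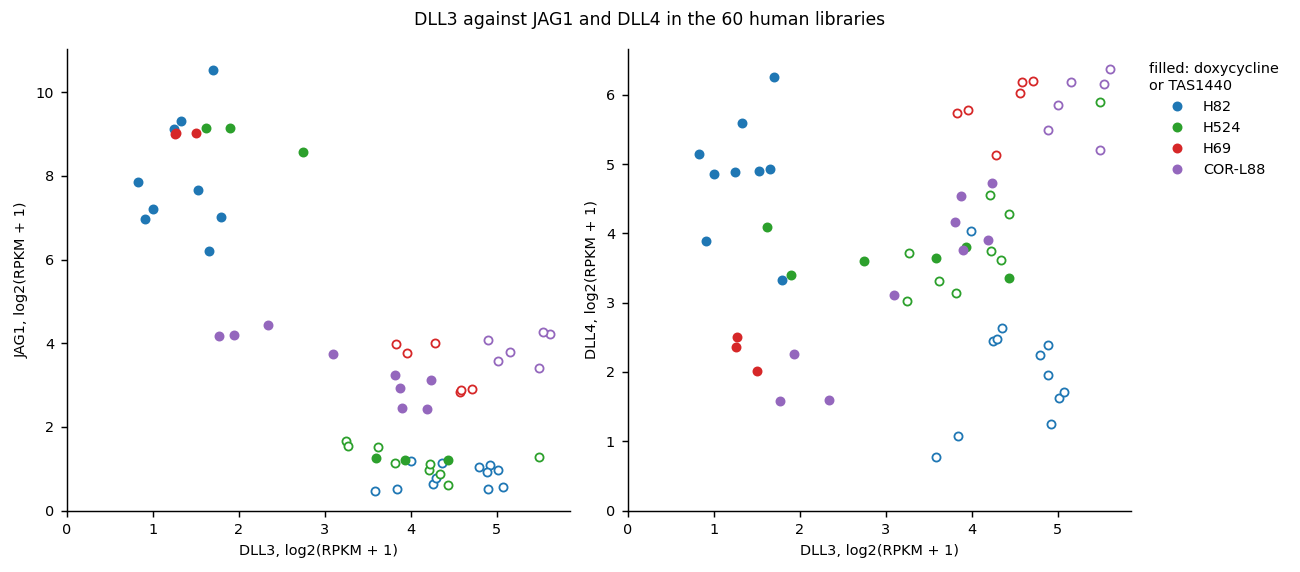
*JAG1* (left) and *DLL4* (right) against *DLL3* in the 60 human libraries, as log2(RPKM + 1), colored by line and filled where doxycycline or TAS1440 was given. Libraries with *JAG1* above 6 all have *DLL3* at 2.75 or lower, whereas at the same low *DLL3* the level of *DLL4* is above 3 in H82 and H524 and below 3 in H69 and COR-L88.

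The genes most like each ligand gene were ranked by Pearson's r over the 20 group means. Among the 3 highest for *DLL3* were *MSI2* (0.89) and *HES6* (0.89), and the highest after centring within lines were *RASD1* (0.93), *C12orf73* (0.93) and *MSI2* (0.93). For *JAG1* they were *PDGFB* (0.96), *EPAS1* (0.96) and *TENC1* (0.95), and after centring *EGFL6* (0.98), *SNAI2* (0.98) and *PLA2G5* (0.98). *DLL1* was followed most closely by *MAL* (0.98), *DLL4* by *PCSK1* (0.83), *JAG2* by *REPIN1* (0.92) and *DNER* by *IRX1* (0.98), so that *DLL4* had the weakest best match of the 6.

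The other genes of the pathway were counted from lists, beside shares of all genes of 25.4% higher and 24.9% lower in H82, 17.9% and 14.4% in H524 and 44.1% and 38.3% in H69 with *N1ICD*, and of 31.1% and 26.6% in COR-L88 and 18.2% and 18.5% in KP1 with TAS1440. Of the 4 receptor genes, 3 were tested in the human lines. *NOTCH1*, whose reads can come from the vector, rose by design with *N1ICD*, and *NOTCH2* and *NOTCH3* rose in H82, H524 and H69 as well, with *NOTCH3* rising by 3.63 in H82, 7.57 in H524 and 8.65 in H69. With TAS1440 in COR-L88 *NOTCH1* (by 1.69), *NOTCH2* (2.39) and *NOTCH3* (2.39) rose, so that receptors and the Delta-like genes moved in opposite directions in the same libraries, and in KP1 *Notch2* rose by 1.68. Of 8 target genes, 7 rose and *HES6*, a target-family member that marks neuroendocrine cells, fell in each of the 3 *N1ICD* lines (by 3.56 in H82, 3.70 in H524 and 3.64 in H69). With TAS1440 in COR-L88, 2 of 7 target genes rose, a share near that of all genes, and 3 fell (*HES6*, *HEY1* and *NRARP*), and *HES1* was 4.52 ± 0.38 compared with 4.65 ± 0.22 with DMSO, whereas in KP1 *Hes1* rose by 4.34 and was 1 of 4 tested target genes to do so. The glycosyltransferase *LFNG*, which sets which ligands a receptor responds to, fell by 1.75 in H82 and 1.06 in H69 with *N1ICD* and by 2.65 in COR-L88 with TAS1440, and *Lfng* fell by 2.33 in KP1. *MIB1*, the ubiquitin ligase that lets ligands be taken up and signal, fell by 1.25 in H82 and 2.05 in H69, and it was not called in H524. *DLK1*, a further noncanonical ligand, fell by 1.81 in H82 and 2.82 in H524. In H69 it was 7.79, 8.38 and 8.60 without and listed at 0 in all 3 libraries with doxycycline, and it was listed at 0 in every COR-L88 library, while *Dlk1* rose by 5.04 in KP1 with TAS1440. The median log2 fold change was 2.11, 3.27 and 2.14 for the target genes in H82, H524 and H69, and 0.24, −0.63 and −2.68 for the ligand genes tested, next to 0.00, −0.02 and 0.08 for all genes.

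Genes of cell state also changed in the same libraries, in comparisons in which 14.4% (H524) to 38.3% (H69) of all genes fell and 17.9% (H524) to 44.1% (H69) rose. The 4 neuroendocrine genes *NEUROD1*, *INSM1*, *SYP* and *CHGA* all fell with *N1ICD* in H82, H524 and H69. With TAS1440, *INSM1*, *SYP* and *CHGA* fell in COR-L88 and their mouse forms fell in KP1, whereas *NEUROD1* was not called in COR-L88 (0.55, limma adjusted *P* = 0.0747) and *Neurod1* was under the filter in KP1. The non-neuroendocrine genes *YAP1* and *VIM* rose in each of these 5 comparisons, with *VIM* by 1.23 in H82 and 8.62 in H69. The part of this change of cell state in the ligand levels was not tested. Of 9 marker genes of blood and endothelial cells, 7 were in the human table, and 6 of these were at 1.18 or lower in every human library. The summed log2 level of the 7 ranged from 0.65 to 1.497 without and 1.04 to 2.26 with doxycycline in H82 *N1ICD* cells, from 3.01 to 4.63 and 4.03 to 4.39 in H524, and from 3.47 to 3.90 and 5.29 to 5.64 in H69, and was mostly *CD14*, which was at 4.88 or lower. In COR-L88 it was 2.06 to 2.51 with DMSO and 0.943 to 1.85 with TAS1440, and in KP1, with 6 of the genes in the table, 0.536 to 0.608 with DMSO and 1.22 to 1.42 with TAS1440. The part of these markers in the ligand levels was not tested.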

How the data were processed

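Messenger RNA was sequenced with a stranded poly(A) kit in 60 libraries of 4 human SCLC lines and 9 libraries of the mouse line KP1. Per the labels and the study's methods, the authors trimmed reads with Cutadapt, aligned them with STAR, counted them with RSEM and normalized the counts with edgeR (trimmed mean of M values). The deposited values are log2(RPKM + 1), in 1 table for the human lines and 1 for KP1 that were normalized separately. The human build was hg19, and tool versions, gene annotation and gene lengths are not given in the sources used here. Read counts were not used here, so intervals and tests rest on the spread between libraries, and precision is limited by 3 libraries in each group. Log scale values keep no count model, and low genes are less precise.

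Libraries were grouped by their labels, and no library was dropped. Each line was fitted with limma 3.58.1 in R 4.3.3 (linear model, contrasts and moderated variance with a trend), with all groups of that line in 1 fit. A gene entered the tests if 3 or more libraries of the fit had a log2 value of 1 or more. Two-sided *P* values were adjusted across every gene in the fit by the Benjamini-Hochberg method, and a gene was called at an adjusted *P* under 0.05. Intervals are 95% confidence intervals, and errors of fold changes are standard errors. The 3 *N1ICD* lines were also fitted together, as were the untreated groups of the 4 lines. Ligand genes under the filter were compared by two-sided exact permutation tests. In all, 35 comparisons were made. The scripts were checked on simulated data. Alternatives were quantile normalization, a fit without a filter on low values, libraries centred on their medians, a pseudocount of 0.1, a fit of the compared groups alone, a variance without trend, a call that also needs a change of 1 or more on the log2 scale in either direction, and leaving out each library in turn. Shares, promoter letters and likeness were computed in Python 3.11.15 with numpy 2.4.6 and pandas 2.3.3, and figures with matplotlib 3.10.9. The 6 ligand genes and the lists of pathway, cell state and marker genes were chosen with earlier results of these data known. Named genes are the 6 ligand genes, genes of these lists, and the 3 genes most like each ligand gene over the 20 human group means, of which the first is printed for 4 of them. Results for some listed or ranked genes are not reported here.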

Additional observations from a re-analysis of the deposited data

Results flagged for a closer look

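For these values the response itself differed between backgrounds, lines or vectors by a test of the difference (limma adjusted *P* under 0.05). In H82, the log2 fold change with doxycycline was higher with *REST* KO than without by 1.06 for *DLL3* (a smaller fall) and by 2.30 for *JAG1* (a larger rise), and the difference was −1.15 for *JAG2* (a larger fall). In H524, the response with the *N1ICD* vector minus that with the *REST* vector was −3.23 for *DLL3* and 8.35 for *JAG1*. In COR-L88, the response to TAS1440 in cells labelled STING KO minus that in cells without KO was 1.17 for *DLL3* and 2.11 for *DLL4*, and these calls were lost under most left-out libraries.

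Between lines, the response to *N1ICD* in H82 minus that in H524 was −1.32 for *DLL3*, 3.65 for *DLL4* and −1.49 for *JAG1*. In H82 minus H69 it was −1.26 for *DLL3*, 5.69 for *DLL4*, 1.41 for *JAG1* and 1.48 for *JAG2*. In H524 minus H69 it was 2.04 for *DLL4*, 2.91 for *JAG1* and 1.81 for *JAG2*. *NOTCH1* with doxycycline differed between these groups as well, with means of 4.86 in H82, 9.55 in H82 with *REST* KO, 8.06 in H524 and 7.99 in H69, and its part was not tested.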

How the results depend on the processing

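No paired analysis was possible because the replicate numbers in the labels are running library numbers that the compared groups do not share. The difference of the *DLL3* response between H524 and H69, 0.06 and not called, changed sign to −0.13 with quantile normalization, −0.039 with median-centred libraries, and ranged from −0.27 to 0.45 on leaving out 1 library, below 0 without library 23, 24, 25 or 49. No called fold change of a ligand gene changed sign in any alternative. The cause of the following changes was not tested unless the setting itself gives it.

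A call that also needs at least a 1-unit change on the log2 scale lowered the number of ligand genes called from 2 to 1 for *REST* KO and for STING KO with doxycycline in H82, from 2 to 1 and from 1 to 0 for the same without doxycycline, from 4 to 2 for uninduced against parental H69, from 5 to 3 for TAS1440 against TAS1440 plus GSI in KP1, from 2 to 1 for untreated H82 against H524 and from 4 to 0 for untreated H69 against COR-L88. With only the compared groups in the fit, the number was 2 (not 1) for STING KO without doxycycline in H82, 1 (not 3) for uninduced *N1ICD* against parental H524 and 0 (not 2) for the interaction in COR-L88, which was also 0 without a filter. Quantile normalization gave 1 (not 2) for *REST* KO without doxycycline in H82 and for untreated H82 against H524. A pseudocount of 0.1 gave 1 (not 0) for the interaction with STING KO in H82, and median-centred libraries gave 4 (not 2) for TAS1440 in COR-L88 cells labelled STING KO.

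Of all genes, the same fold requirement left 3770 of 6994 called with *N1ICD* in H82, 4157 of 7254 with *REST* KO, 2815 of 5251 with STING KO, 2453 of 5332 and 2291 of 5449 between *REST* KO or STING KO and no KO with doxycycline, 867 of 2119 and 1996 of 4806 without it, and 891 of 1903 for uninduced against parental cells. In H524 it left 2540 of 4408 (*N1ICD*), 255 of 386 (*REST*) and 1651 of 3624 (uninduced *N1ICD* against parental), and in H69 5675 of 11182 and 716 of 3727. In COR-L88 it left 2991 of 7576 (TAS1440), 1935 of 6134 (against TAS1440 plus GSI), 1185 of 3213 (TAS1440 plus GSI against DMSO), 2106 of 5692 (STING KO), 193 of 710 (STING KO with DMSO) and 556 of 1041 (interaction), and in KP1 1552 of 3030, 1363 of 2642 and 100 of 163. Between untreated lines it left 4373 of 7903 (H82 and H524), 6422 of 9671 (H82 and H69), 5643 of 9028 (H82 and COR-L88), 4703 of 8151 (H524 and H69), 4855 of 8301 (H524 and COR-L88) and 4792 of 8006 (H69 and COR-L88). With only the compared groups, 413 were called for uninduced against parental H82, 916 for *REST* overexpression, 623 for uninduced *N1ICD* against parental H524, 215 for STING KO with DMSO, 621 for the COR-L88 interaction and 339 for TAS1440 plus GSI against DMSO in KP1. Without a filter, 4825, 4112 and 372 were called in the KP1 comparisons, the last of which gave 102 with a pseudocount of 0.1. Uninduced *REST* vector against parental H524 gave 41 in the main setting, 97 with a pseudocount of 0.1 and 70 with median-centred libraries.

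Leaving out 1 library at a time gave 1 to 2 ligand genes called for *REST* KO with doxycycline (1 without library 33) and without it (1 without library 28 or 29), 0 to 1 for STING KO without doxycycline (0 without library 5, 55 or 57), 2 to 4 for the interaction of vector and doxycycline in H524 (4 without library 24), 2 to 4 for TAS1440 in COR-L88 cells labelled STING KO (4 without library 44), 2 to 4 for untreated H82 against H524 (4 without library 1) and 0 to 5 for the COR-L88 interaction (5 without library 44, and 1 or 0 without any other). Of all genes it gave 1100 to 1868 for *REST* KO without doxycycline (1100, 1273 and 1269 without libraries 28, 29 and 30), 944 to 3644 for uninduced against parental H82, 787 to 1813 of a main count of 1288 for the interaction with STING KO in H82 (787, 833 and 856 without libraries 55, 56 and 6), 126 to 410 for *REST* overexpression (126 to 250 without libraries 34, 35, 36, 38 or 39), 18 to 67 for uninduced *REST* vector against parental cells, 239 to 1126 for STING KO with DMSO, 487 to 1788 for the COR-L88 interaction and 52 to 148 for TAS1440 plus GSI against DMSO in KP1 (52 to 94 without libraries 1, 2, 7 or 8).

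The median fold change of all genes, within 0.1 of 0 on the log2 scale in most settings, ranged from −0.15 to 0.12 under quantile normalization or median centring in the comparisons it moved further, and the ligand changes of over 1 are large beside it. Genes near 0 in most libraries of a fit, such as *DLL1* and *DNER* in H82, were left out of the test by the filter on low values, and a single library decided several calls named with their results.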
